A study of Bos taurus with 8 samples.

Results

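Vascular endothelial cells (VECs) line the inside of blood vessels, and here they were the cells of freshly dissociated bovine muscle that carried the study's label VECs. They numbered 1166 of the 4395 muscle cells kept after quality control, and of 36129 kept cells in the series as a whole. Each VEC was assigned to its animal of origin, and its unique molecular identifiers (UMIs, 1 per captured RNA molecule) were summed per animal and set against the sum of the other 3229 muscle cells of the same animal. Since the study had assigned its labels by clustering these same transcriptomes, differences between VECs and other cells are described here with their size and spread and carry no p-value.

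Blood endothelium forms a sealed sheet in which neighbouring cells are held together by VE-cadherin, claudin-5 and other junction proteins. Its cells respond to vascular endothelial growth factors (VEGFs) through KDR and FLT1 and to angiopoietins through TEK, while Notch ligands and SOX factors set arteries apart from veins. In skeletal muscle most of these cells sit in capillaries, where they pass oxygen, fatty acids and glucose to the fibres.

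The muscle was the semitendinosus of 10 Belgian Blue cattle slaughtered for food, a breed with heavy muscling. Tissue was digested with collagenase, filtered and freed of red blood cells, and the unsorted cells of all animals were pooled in equal ratios without culture and loaded as 1 library (10x Chromium 3′ v3.1, Timepoint 1). Animals 2, 4, 5, 7 and 10 were calves and animals 1, 3, 6, 8 and 9 were adults, with exact ages not given in the sources used here. Animals 6, 8 and 10 were male and the others female, and the labels name no treatment.

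Of the 8980 barcodes in the muscle library, 5237 were singlets, 728 doublets of different animals (8.11%) and 2817 ambiguous by genotype. VECs had a median of 2778.5 UMIs and 1256.5 genes per cell, against 4841 UMIs and 1792 genes in the other cells, and a median of 2.18% against 3.12% mitochondrial UMIs. The VECs of an animal together held from 206284 to 1042240 UMIs (median 342676). The other muscle cells comprised 1231 fibro-adipogenic progenitors (FAPs, the connective tissue precursors), 647 satellite cells (SCs, the muscle stem cells), 548 smooth muscle and mesenchymal cells (SMMCs), 403 monocytes/macrophages, 188 B, T and NK cells, 81 lymphatic endothelial cells (LECs), 51 neutrophils, 45 myocytes, 23 tenocytes and 12 glial cells. Of the VEC barcodes, 7 also occurred among the kept cells of other libraries of the series, none as a VEC of the same animal. All animals shared the 1 library. The day of slaughter and digestion of each animal is not given in the sources used here, so a batch of that kind was not tested.

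The label was checked against 13 endothelial marker genes. At least 3 of them were detected in 1138 of 1166 VECs (97.6%), in all 81 LECs, in 7.85% of SMMCs and in 3.57% of FAPs. Clustering of the VECs alone nevertheless set apart 44 cells that went against the label or carried the genes of another cell type. A group of 22 cells had MYOD1, the master regulator of the muscle lineage, in 100% of cells and 0 UMIs of CDH5, and its 13 endothelial markers summed to 346 CPM (UMIs per 1000000 UMIs of the cells summed) against 8864 CPM in the remaining VECs. The other such groups were 10 cells led by the fibroblast genes MGP, DCN and COL1A1 and 12 cells led by the fast-fibre troponins TNNC2, TNNI2 and TNNT3. Calves contributed 36 of the 44 cells, 4.51% of their 799 VECs, and adults 8, or 2.18% of 367. The cells stay in the values below, and the main counts are also given without them.

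VECs made up 26.9% ± 9.21 (SD, n = 10 animals) of the kept muscle cells. The share was 22.9% in animal 1, 35.0% in animal 2, 35.2% in animal 3, 42.3% in animal 4, 11.5% in animal 5, 16.6% in animal 6, 23.4% in animal 7, 27.0% in animal 8, 30.6% in animal 9 and 24.4% in animal 10. Animal 5 was lowest, with 87 of 754 cells and an exact 95% binomial interval of 9.35 to 14.0%, and animal 4 was highest, with 311 of 735 cells and an interval of 38.7 to 46.0%, so these 2 animals differed by more than counting error. Calves averaged 27.3% and adults 26.5%, a difference of 0.858 percentage points that was smaller than the spread between animals (exact 2-sided permutation test, p = 0.889, n = 5 and 5). Leaving out animal 1, 2, 4 or 6, or the 44 cells above, turned the sign of this difference. The number of VECs per SMMC ranged from 1.45 to 3.25. These are shares of cells that survived digestion and capture, and they may not be the shares in the tissue.

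**Figure D1:**
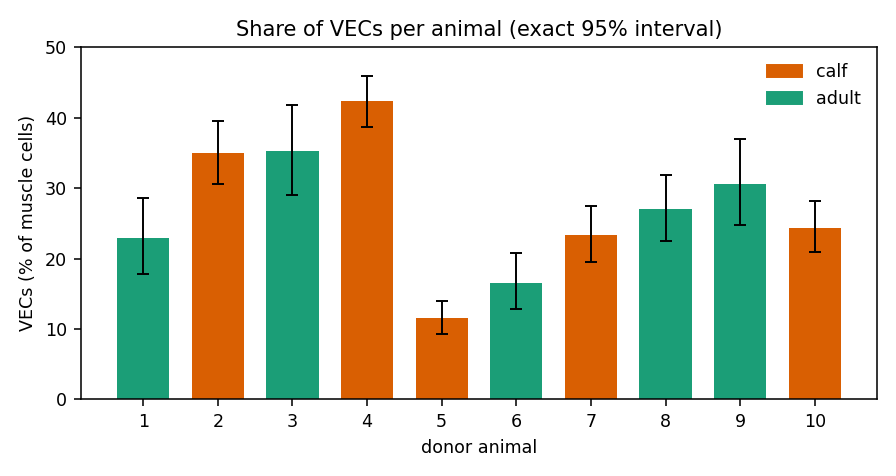
Bars give VECs as a percent of the kept muscle cells of each animal, coloured by calf or adult, with exact 95% binomial intervals as error bars (counting error only). The share runs from 11.5% in animal 5 to 42.3% in animal 4, and the 5 adults lie within the range of the 5 calves.

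Across all genes that passed the filter on low counts, 7074 were compared between VECs and the other muscle cells of the same animals. A gene was counted as higher where its fitted log2 fold change (log2FC, VECs minus other cells, ± standard error) was above 1 and its CPM was higher in VECs in every animal, and as lower by the mirror rule. By this rule 696 genes (9.84%) were higher and 786 (11.1%) lower in VECs, and the median log2FC of all genes was -0.03. Without the 44 cells the counts were 737 and 845. When each other cell type with at least 10 cells in an animal was given equal weight, 643 genes were higher and 755 lower. Myocytes, tenocytes and glial cells did not reach 10 cells in any animal and were left out of this weighting. LECs entered it only in animals 4, 7, 8 and 10, and neutrophils only in animal 4. Among the genes named below KLF2, ID2, RAMP3, NOTCH1, SMAD1, PSMB9, PGF, PTGS1, COL15A1 and NID1 no longer met the rule. Nor did the muscle fibre genes MB, CKM, MYH1 and ACTA1, here set against sums without myocytes. Under the same weighting VCAM1 (2.22), CXCL12 (1.70), MEOX2 (1.27), COL4A2 (1.09) and CTNNB1 (1.03) were newly counted as higher, and the adhesion gene NECTIN2 (0.99) was no longer counted. These shares are the background for the gene groups that follow. A gene could pass the filter through its level in VECs or in the other cells alone, and 1505 of the 7074 were not at the filter's level of 13.8 CPM in the other cells of every animal. Such a gene could enter only if VECs held it. Conversely, 2727 were not at that level in the VECs of every animal and could enter only if the other cells held them. The counts and medians of a group therefore describe its tested members and not the whole group.

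Of the 13 marker genes, 12 were counted as higher in VECs, against 9.84% of all genes, and none of these 12 overlapped between VECs and the other cells. The share of all genes without overlap is not given here. In the other cells 8 of the 13 were not at the filter's level in every animal. The lack of overlap is therefore not read as a result about the markers, nor about other genes said below not to overlap. TEK, the angiopoietin receptor Tie2, stood at 202 to 336 CPM in VECs (median 253) and 4.95 to 23.5 CPM in the other cells (median 14.2), with a log2FC of 4.24 ± 0.18. F11R, the tight junction protein JAM-A, stood at 209 to 327 CPM in VECs (median 271) and 5.97 to 17.2 CPM in the other cells (median 10.8), with a log2FC of 4.71 ± 0.16. CD34, a sialomucin that FAPs also make, stood at 217 to 604 CPM in VECs (median 384) and 69.0 to 122 CPM in the other cells (median 78.5), with a log2FC of 2.22 ± 0.16, so the 2 ranges came closer than for TEK or F11R. The adhesion molecule PECAM1 stood at 632 to 1064 CPM in VECs (median 900.4) and 14.0 to 55.3 CPM in the other cells (median 29.8), with a log2FC of 4.94 ± 0.19. VE-cadherin (CDH5) had a log2FC of 4.83, CLDN5 4.08, ERG, an endothelial ETS factor, 4.96, the orphan receptor TIE1 4.01 and the secreted vessel factor EGFL7 4.37. CLDN5 was also present in LECs, where it averaged 1096 CPM over 4 animals against 851 CPM in VECs over 10.

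CD74 was the exception. It encodes the invariant chain of MHC class II, which escorts antigen-presenting molecules, and it stood at 1717 to 2674 CPM in VECs (median 2149) and 504 to 2743 CPM in the other cells (median 1679.8), with a log2FC of 0.46 ± 0.20. The 2 groups overlapped, and CD74 was higher in VECs in 8 of 10 animals. By cell type, CD74 had a mean of 10303 ± 2253 CPM (SD, n = 10 animals) in monocytes/macrophages, 2162 ± 283 CPM in VECs, 179 CPM in LECs, 96.7 CPM in SMMCs and 18.3 CPM in FAPs. After every cell was thinned to 1000 UMIs, which left out 105 VECs and 4 FAPs, CD74 was found in 79.3% of VECs and 1.87% of FAPs, a cell type that should lack it (92.7% and 7.55% before thinning, at median depths of 2778.5 and 6213 UMIs).

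**Figure D2:**
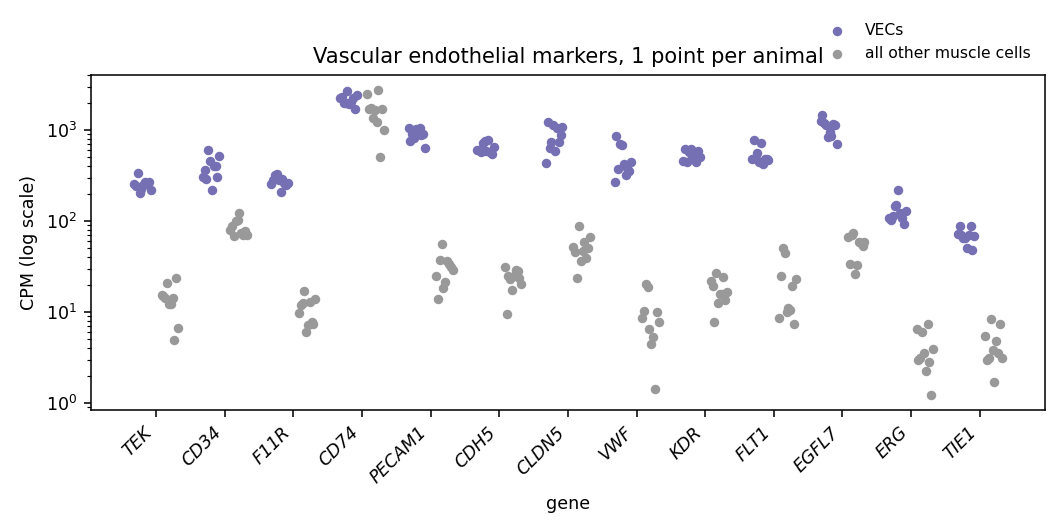
CPM on a log10 axis for the 13 marker genes in each of the 10 animals, with VECs and all other muscle cells of the same animal as separate points. The VEC points lie above the other points for 12 genes, and for CD74 the 2 sets overlap.

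The 10 largest fold changes were those of SELP, PLVAP, TYRP1, AVPR2, SOX17, CYYR1, RFLNA, VWF, NOS3 and ADGRL4, from 7.45 down to 5.72 on the log2 scale. SELP, the P-selectin that catches rolling leukocytes, stood at 45.7 to 328 CPM in VECs (median 90.4) and 0 to 2.32 CPM in the other cells (median 0), with a log2FC of 7.45 ± 0.50. PLVAP, which forms the diaphragms of caveolae and fenestrae, stood at 48.1 to 407 CPM in VECs (median 158) and 0 to 2.83 CPM in the other cells (median 1.17), with a log2FC of 7.41 ± 0.48. Both genes varied widely between the VECs of different animals but were near 0 outside VECs in every one. VWF, the platelet tether stored in endothelial granules, stood at 271 to 868 CPM in VECs (median 404) and 1.41 to 20.4 CPM in the other cells (median 8.21), with a log2FC of 5.82 ± 0.33. NOS3, the nitric oxide synthase of endothelium, stood at 75.8 to 288 CPM in VECs (median 132) and 0.530 to 7.84 CPM in the other cells (median 2.33), with a log2FC of 5.72 ± 0.29. AVPR2, the vasopressin V2 receptor, had a log2FC of 6.17 ± 0.24 with 54.3 to 129 CPM in VECs, and TYRP1, known for its part in melanin synthesis, had a log2FC of 6.34 ± 0.43 with 14.5 to 122 CPM in VECs (median 49.5). None of the 10 overlapped with the other cells, but they were picked for the largest folds among genes higher in every animal, so this is no separate result.

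Junction and adhesion genes were the longest list, with 30 genes chosen for it. Of 27 tested, 24 were higher in VECs and 0 lower, with a median log2FC of 3.86. But 11 of the 27 were not at the filter's level in the other cells of every animal and entered through VECs. ROBO4, a guidance receptor that steadies vessels, had 245 to 447 CPM in VECs (median 355) and 2.47 to 18.3 CPM in the other cells (median 9.19), with a log2FC of 5.24 ± 0.19. JAM2 and ESAM, both of the tight junction family, had log2FC values of 4.41 and 4.39. MMRN2 and its receptors CD93 and CLEC14A had 5.47, 4.76 and 2.95. The mucin EMCN had 4.21, the TGF-β co-receptor ENG 3.81 and the sphingosine-1-phosphate receptor S1PR1 3.86. The 3 genes that met neither rule were CTNNB1 (0.98), the catenin shared by adherens junctions of most cells, JAM3 (0.21) and CD99 (0.32). Without the 44 cells CTNNB1 was counted as higher at 1.04.

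Of 11 genes tested in the VEGF and angiopoietin group, 7 were higher, 1 was lower and 3 met neither rule, with a median log2FC of 1.90. Here 6 of the 11 were not at the filter's level in all sums of the other cells. KDR, the main VEGF receptor, had 439.9 to 625 CPM in VECs (median 525) and 7.84 to 26.6 CPM in the other cells (median 16.3), with a log2FC of 4.94 ± 0.15, without overlap. FLT1, the other receptor for VEGFA, had a log2FC of 4.75 and PTPRB, the phosphatase that restrains TEK, 5.39. The co-receptor NRP1 (1.51) and the ligand VEGFC (1.38) were higher by less. VEGFA itself had 19.2 to 58.4 CPM in VECs (median 34.4) and 23.5 to 51.5 CPM in the other cells (median 39.8), with a log2FC of -0.15 ± 0.21. The placental growth factor PGF was lower (-1.88), and VEGFB was counted as lower without the 44 cells (-1.13 against -0.68 with them). ANGPT2, the TEK ligand of remodelling vessels, had 12.5 to 225 CPM in VECs (median 49.3) and was higher in 8 of 10 animals, with a log2FC of 1.90. Against LECs, 4 of 8 genes of this group tested were higher and 2 lower in VECs. ANGPT2 had 49.9, 35.1, 72.4 and 48.7 CPM in the VECs of animals 4, 7, 8 and 10 and 731, 169, 349 and 89.1 CPM in their LECs. FLT4, the receptor for VEGFC, did not pass the filter and averaged 2.46 CPM in VECs against 317 CPM in LECs.

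Notch pathway genes went both ways. Of 13 genes tested, 6 were higher and 4 lower in VECs (median log2FC 0.91), and 6 of the 13 were not at the filter's level in all sums of the other cells. DLL4, the ligand of arterial and sprouting endothelium, had 41.5 to 223 CPM in VECs (median 132) and 1.94 to 11.8 CPM in the other cells (median 4.20), with a log2FC of 4.65 ± 0.30. The ligands JAG2 and DLL1 had log2FC values of 4.58 and 3.57, the receptor NOTCH4 3.65, NOTCH1 1.49 and the target HEY1 2.52. NOTCH2 (-4.64), the mural receptor NOTCH3 (-3.79), the transcription partner RBPJ (-1.55) and the inhibitor DLK1 (-3.28) were lower in VECs. The ligand JAG1 (0.91) met neither rule, and without the 44 cells it was counted as higher at 1.01.

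Of 13 BMP and TGF-β genes tested, 8 were higher and 3 lower (median log2FC 1.53). ID1, a direct target of BMP signalling, had 1399 to 5028 CPM in VECs (median 1890.3) and 64.0 to 209 CPM in the other cells (median 108), with a log2FC of 4.63 ± 0.31, and the 2 groups did not overlap. ID3 (2.87) and ID2 (1.61), the receptors ACVRL1 (1.53) and BMPR2 (1.28) and the signal carrier SMAD1 (1.55) were higher, as was the inhibitor SMAD7 (1.58). The ligand BMP2 (-2.25) and the TGF-β receptors TGFBR2 (-1.71) and TGFBR3 (-3.03) were lower. Against LECs, 5 of 11 genes of this group tested were higher and 4 lower in VECs. SMAD1 had 199, 145, 139 and 157 CPM in the VECs of animals 4, 7, 8 and 10 and 356, 737, 547 and 564 CPM in their LECs.

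Of 25 endothelial transcription factors tested, 18 were higher and none lower (median log2FC 2.20). But 12 of the 25 did not reach the filter's level in all sums of the other cells. Of the SOXF factors, SOX17 had 225 to 522 CPM in VECs (median 391) and 0 to 16.6 CPM in the other cells (median 3.44), with a log2FC of 5.94 ± 0.34, and SOX7 and SOX18 had log2FC values of 5.32 and 4.37. MECOM (4.98), GATA2 (3.76), the oxygen-responsive factor EPAS1 (3.28), MEOX1 (2.72) and the flow-responsive factors KLF2 (2.18) and KLF4 (1.54) were higher too. EPAS1 was not particular to endothelium, since SMMCs averaged 782 CPM and VECs 1239 CPM. TAL1, a factor of blood and vessel development, had a log2FC of 2.37 but was higher in 9 of 10 animals. NR2F2, the venous factor COUP-TFII, had a log2FC of -0.40, with a mean of 873 CPM in SMMCs and 129 CPM in VECs.

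Of 18 listed genes of fatty acid uptake, 17 were in the matrix and 9 passed the filter, and of these 6 were higher in VECs and 1 lower (median log2FC 2.52). FABP5, a cytosolic carrier of fatty acids, had 3811 to 15815 CPM in VECs (median 8362) and 130.4 to 579.9 CPM in the other cells (median 282), with a log2FC of 4.96 ± 0.32. CD36, the membrane transporter of fatty acids, had 726 to 3027 CPM in VECs (median 1504) and 52.6 to 369.7 CPM in the other cells (median 96.8), with a log2FC of 3.57 ± 0.38. Neither gene overlapped with the other cells, and both were also present in SMMCs, at a mean of 1526 CPM for FABP5 and 829 CPM for CD36. TCF15, which with MEOX2 drives CD36 and fatty acid uptake in capillaries, had a log2FC of 3.54, and the lipid regulator PPARG 2.99. LPL, the lipase that endothelium displays but parenchymal cells make, was lower (-3.86). FABP4 did not pass the filter and averaged 10.5 CPM in VECs.

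The membrane machinery of endothelium followed the same direction. Of 9 caveolar genes tested, 8 were higher and PACSIN2 (0.54) met neither rule (median 1.99). CAV1, the coat protein of caveolae, had 2964 to 4842 CPM in VECs (median 3547) and 254 to 751 CPM in the other cells (median 452), with a log2FC of 3.04 ± 0.15, without overlap. CAV2 had a log2FC of 2.69, and CAVIN1, CAVIN2 and CAVIN3 had 1.99, 2.45 and 1.31. Against LECs, 4 of the 9 caveolar genes were higher and 1 lower in VECs. CAVIN2 had 511, 617, 480 and 415 CPM in the VECs of animals 4, 7, 8 and 10 and 1675, 2012, 1852 and 1946 CPM in their LECs. Of 9 transporter genes tested, 7 were higher and none lower (median 2.57), and 3 of the 9 did not reach the filter's level in all sums of the other cells. The water channel AQP1 had 652 to 2695 CPM in VECs (median 1448) and 24.4 to 64.2 CPM in the other cells (median 39.9), with a log2FC of 5.28 ± 0.29, without overlap. The prostaglandin transporter SLCO2A1 had a log2FC of 5.27, the glucose transporter SLC2A3 2.60, the efflux pump ABCG2 2.57, the glutamine carrier SLC38A2 1.76 and the lactate carrier SLC16A1 1.38. SLC16A1 no longer met the rule with the sums thinned to the smallest (1.13).

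All 9 genes of MHC class I presentation were higher in VECs than in the other cells pooled, with a median log2FC of 1.98. B2M, the light chain of class I, had 11273 to 16754 CPM in VECs (median 13547) and 1478 to 3645 CPM in the other cells (median 2389.8), with a log2FC of 2.56 ± 0.14, without overlap. The class I heavy chain listed as BOLA had 3001 to 15129.6 CPM in VECs (median 12579) and 307 to 2913 CPM in the other cells (median 1593), with a log2FC of 2.86 ± 0.39, again without overlap, and the non-classical chain BOLA-NC1 had a log2FC of 2.25. Class I genes are close copies of each other and their reads could be split between copies, so the value of a single heavy chain is uncertain. The peptide transporter TAP1 had 2.66, TAP2 1.98, the loading factor TAPBP 1.52 and the immunoproteasome subunits PSMB8 and PSMB9 1.93 and 1.54. The remaining member was PSMB10, a subunit of the same complex. Immune cells also carried these genes. B2M averaged 13763 ± 1813 CPM (SD, n = 10 animals) in VECs, 10371 ± 1898 CPM in B, T and NK cells, 6296 ± 1324 CPM in monocytes/macrophages and 743 CPM in FAPs. PSMB9 averaged 149.9 ± 34.9 CPM in VECs and 345 ± 65.9 CPM in B, T and NK cells, and PSMB8 averaged 394 and 482 CPM.

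None of the 5 class II genes tested, CD74 among them, met either rule (median log2FC 0.16). BOLA-DRA, the class II alpha chain, had 775 to 1148 CPM in VECs (median 904) and 274 to 1644 CPM in the other cells (median 1007), with a log2FC of -0.10 ± 0.21, with overlap. By cell type its mean was 6478 ± 1252 CPM in monocytes/macrophages (SD, n = 10), 923 ± 129 CPM in VECs (n = 10) and 55.9 ± 81.5 CPM in LECs (n = 4). A UMI of any class II gene was found in 89.5% of VECs and 3.75% of FAPs at 1000 UMIs per cell (96.5% and 14.5% before thinning). The macrophage markers were low in the same cells: CD14, CSF1R, C1QA and CD68 summed to 23.6 to 66.2 CPM in the VECs of an animal and 627 to 2611 CPM in the other cells.

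**Figure D3:**
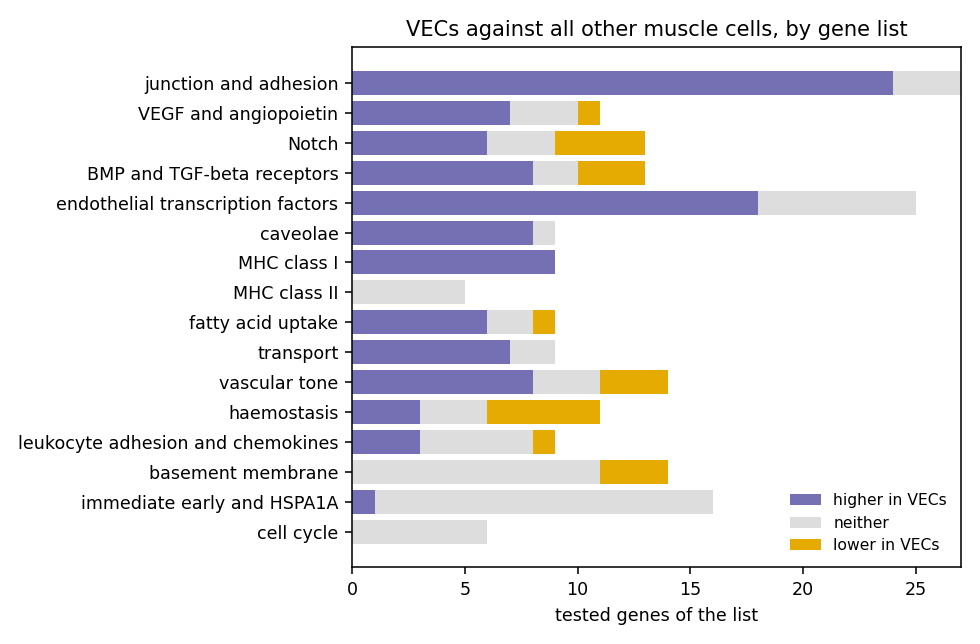
Stacked bars give the number of tested genes of each of 16 gene groups (horizontal axis) that were higher, neither or lower in VECs than in all other muscle cells by the rule above. Of 27 junction genes 24 were higher and of 9 MHC class I genes 9, while none of the 5 MHC class II genes met either rule and 3 of 14 basement membrane genes were lower.

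Genes of vascular tone were higher in VECs in 8 of 14 tested and lower in 3 (median log2FC 1.34). Of the 14, 6 did not reach the filter's level in all sums of the other cells. NOS3, given above, and EDN1, the precursor of the constrictor endothelin-1, were among those higher. EDN1 had 17.2 to 127 CPM in VECs (median 67.2) and 0 to 4.70 CPM in the other cells (median 1.18), with a log2FC of 5.25 ± 0.40. The converting enzyme ECE1 (1.63), the adrenomedullin receptor CALCRL (3.05) with its partners RAMP2 (1.05) and RAMP3 (4.32) and the natriuretic peptide receptor NPR1 (3.31) were higher as well. The endothelin receptor EDNRA (-3.49) and the prostanoid enzymes PTGIS (-2.27) and PTGS1 were lower. RAMP2 no longer met the rule with no filter on low counts (0.99) or with the sums thinned to the smallest (0.99).

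Haemostasis genes did not move as a group. Of 11 tested, 3 were higher and 5 lower (median log2FC -0.53). VWF and its partner coagulation factor F8 (3.85) were higher, with the protease inhibitor TFPI2 (2.94). Tissue factor F3 (-3.83), the protein C receptor PROCR (-3.75), the thrombin receptor F2R (-2.64) and MMRN1 (-5.04) were lower.

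Of 9 genes of leukocyte adhesion and chemokines tested, SELP, CCL14 and IL33 were higher and CCL2 was lower. Of the 9, 5 did not reach the filter's level in all sums of the other cells. CCL14, a chemokine for monocytes, had 1857 to 5310.4 CPM in VECs (median 3378) and 159.6 to 735 CPM in the other cells (median 402), with a log2FC of 3.17 ± 0.24, without overlap. The nuclear cytokine IL33 had a log2FC of 2.56 and CCL2 -5.27. VCAM1, a ligand for leukocyte integrins, had 8.35 to 257 CPM in VECs (median 57.7) and was higher in 7 of 10 animals, and ICAM1 had a log2FC of 0.36. Among 14 basement membrane genes none was higher and 3 were lower, namely LAMC1 (-1.92), NID1 (-1.62) and COL15A1 (-1.30), while the type IV collagen COL4A1 had 0.03 (median of the group -0.40). Without the 44 cells AGRN, the matrix proteoglycan agrin, was counted as higher (1.03).

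The 10 genes lowest in VECs were C5AR1, CR2, CD209, CSF1R, CCL24, MSR1, SCIN, AIF1, FCGR1A and POSTN. C5AR1, the complement C5a receptor, had 0 UMIs in VECs against 1083 in the other cells, at least 87.4-fold lower with a floor of 3 counts over the group. CR2 and CD209 also had 0 UMIs in VECs and were at least 77.8-fold and 61.5-fold lower. CSF1R, the receptor that defines macrophages, had 2 UMIs in VECs and was 346-fold lower (95% counting interval 95.8 to 2861), and the matrix gene POSTN had 3 UMIs and was 147-fold lower (50.1 to 712). By this comparison all tested markers of LECs (3 genes), FAPs (5), SCs (2), mural cells (4), macrophages (4), leukocytes (3) and muscle fibres (4) were lower, against 11.1% of all genes. Of these, 3, 4, 2, 4, 4, 3 and 2 genes were not at the filter's level in the VECs of every animal. They entered through the other cells, so their direction was in part set by the filter and the labels. The muscle fibre genes did not meet the rule with the other cell types weighted equally. The exception among other types' markers was S100B, a glial gene, which had 288 to 859.6 CPM in VECs (median 516) and 46.9 to 134 CPM in the other cells (median 89.5), with a log2FC of 2.46 ± 0.21, and a mean of 326 CPM in LECs and 375 CPM in SCs.

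RNA of genes that mark other cell types was also found among VECs, in part in the 44 cells set apart above. The 5 FAP markers summed to 39.6 to 881 CPM in the VECs of an animal against 7846 to 18285 CPM in the other cells. The 44 cells held 1123 of the 1452 UMIs of these genes in VECs (77.3%), and without them the sum was 41.4 to 140.1 CPM. A UMI of any of them was found in 23.1% of VECs, in 10.8% at 1000 UMIs per cell, and in 99.8% of FAPs. Muscle fibre genes summed to 182 to 662 CPM in VECs and 570.5 to 1395 CPM in the other cells, and without the 44 cells to 185 to 331 CPM in VECs. Mural markers summed to 29.2 to 170 CPM in VECs, leukocyte markers to 0 to 67.9 CPM, lymphatic markers to 0 to 39.3 CPM and SC markers to 0 to 48.3 CPM.

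Immediate early genes, which tissue digestion can induce, were listed together with the heat shock gene HSPA1A. Without HSPA1A they summed to 13394 to 26458 CPM in VECs and 11150 to 18608 CPM in the other cells. HSPA1A alone was at 2938 to 16368 CPM in VECs and 839 to 8053 CPM in the other cells, highest in the VECs of animal 4. Its log2FC of 0.995 did not meet the rule, but with the animal as a replicate block it was counted as higher (1.16). Of the 15 immediate early genes tested, only DUSP1 (2.17), a phosphatase that ends MAP kinase signals, was counted as higher, and FOS (-0.13) and JUN (0.71) were not. Their median was 0.52 against -0.03 over all genes, and its part in the results above was not tested. Of 6 cell cycle genes tested none met either rule.

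Set against LECs, the nearest endothelial type, VECs had less of lymphatic genes such as CCL21 and PROX1 and more of genes of MHC presentation such as B2M and CD74. Only animals 4, 7, 8 and 10 had at least 10 cells of each type, so the comparison rests on 4 animals with 47 LECs (11 to 13 per animal), and 3071 genes were tested. In simulated counts of this size, the rule also counted some genes that had not been changed, which it did not do for the other comparisons of VECs with other cells. These were many enough to make the counts against LECs less firm. The simulation used the same setting for the spread of every gene and did not pair the animals. It therefore does not show that the counts of the other comparisons are free of such genes. In VECs 378 genes (12.3%) were higher and 233 (7.59%) lower by the same rule, and 376 and 230 without the 44 cells. DCN, the only FAP marker tested here, was counted as higher in VECs (log2FC 3.84), with 242, 587, 748 and 77.6 CPM in the VECs of animals 4, 7, 8 and 10 and 53.5, 15.4, 45.5 and 0 CPM in their LECs. Without the 44 cells it was at 45.5, 41.2, 52.0 and 84.7 CPM in those VECs and did not pass the filter. The filter's level was 50.1 CPM here, and 1457 of the 3071 genes did not reach it in all 4 LEC sums, and 753 did not in all 4 VEC sums. Because VECs also enter the comparison with all other cells, agreement between the comparisons is not independent.

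All 7 lymphatic markers were lower in VECs, and each passed the filter through LECs alone. CCL21, the chemokine that draws dendritic cells into lymphatics, had 2.88, 0, 0 and 7.22 CPM in the VECs of animals 4, 7, 8 and 10 and 2976, 5912, 8897 and 4204 CPM in their LECs, a log2FC of -10.70 ± 0.65. LYVE1, the hyaluronan receptor of lymphatics, had a log2FC of -8.82 and MMRN1 -9.50. RELN and DSP had 0 UMIs in VECs and were at least 268-fold and 169.7-fold lower. PROX1, the factor that sets lymphatic fate, had 5.76, 2.34, 6.03 and 1.80 CPM in VECs and 267, 246, 167 and 238 CPM in LECs.

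The 9 MHC class I genes tested were higher in VECs than in LECs, and so were the 4 class II genes tested. Only 3 of the 9 and none of the 4 reached the filter's level in all 4 LEC sums, so the others entered through VECs and their number is no measure of the group. B2M, which reached it, had 13552, 12065, 12669.6 and 13542 CPM in the VECs of animals 4, 7, 8 and 10 and 2994, 1689, 1032 and 802 CPM in their LECs, with a log2FC of 3.00 ± 0.36. CD74 had 2004, 2048, 2249.8 and 2449 CPM in VECs and 535, 123, 15.2 and 44.6 CPM in LECs, with a log2FC of 3.68 ± 0.66 and no overlap. BOLA-DRA had a log2FC of 4.10. Of 9 listed capillary genes 6 were tested and of 16 listed genes of leukocyte adhesion 5, and these were higher in VECs, but 0 of the 6 and 1 of the 5 reached the filter's level in all LEC sums. RGCC had 2815 UMIs in VECs and 13 in LECs (log2FC 4.43), and CCL14 had 9397 and 77 (log2FC 3.53). The VEC sums held more UMIs than the LEC sums in each of these animals, so the raw counts overstate the folds. Of 25 junction genes 12 were higher and none lower, with 13 of the 25 at the filter's level in all LEC sums, and of 9 vascular tone genes 1 was higher. The largest fitted folds were those of C3H1orf54, APLNR, SMIM3, SELP and MEOX1, all with 0 UMIs in LECs. With a floor of 3 counts they were at least 14.4-fold, 9.58-fold, 8.24-fold, 8.50-fold and 8.06-fold higher in VECs. APLNR encodes the receptor for apelin. Genes with 1 to 3 UMIs in LECs reached higher folds by their counts, such as CD93 (102-fold higher in VECs, 95% counting interval 18.3 to 4036) and JAM2 (50.8-fold, 17.4 to 247), so no order is read from these folds.

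The genes that set VECs apart from all other cells were shared with LECs in part. Of the 13 endothelial markers, 6 were higher in VECs than in LECs and none lower (median log2FC 0.83). CD34 (4.32), CD74, FLT1 (3.01), VWF (2.62), TEK (1.71) and ERG (1.01) were higher, while KDR (0.83), F11R, CDH5, PECAM1, EGFL7, CLDN5 and TIE1 (-0.36) met neither rule. With the animal as a replicate block ERG, at 0.98, did not meet it either. Of 23 endothelial transcription factors tested, 8 were higher, 2 lower and 13 neither (median 0.65). The SOXF factors parted here: SOX17 had 1 UMI in LECs and was 83.1-fold higher in VECs (95% counting interval 14.9 to 3285), while SOX7 had a log2FC of 0.89 and SOX18 of -0.54. Without the 44 cells SOX7 was counted as higher (1.04). SOX18 had 517, 559, 709 and 482 CPM in the VECs of animals 4, 7, 8 and 10 and 428, 967, 911 and 921 CPM in their LECs, with overlap. NR2F2 (-1.93) and TAL1 (-2.10) were lower in VECs. Of the 15 immediate early genes 5 were higher than in LECs and none lower (median 0.67), against 12.3% of all genes. These were NR4A1 (1.83), ZFP36 (1.66), EGR1 (1.62), JUNB (1.37) and IER2 (1.25), the heat shock gene HSPA1A (1.18) was higher too, and their part in the comparison with LECs was not tested.

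SMMCs, which include the cells that wrap vessels, had at least 10 cells in all 10 animals. Of 3442 genes tested, 444 (12.9%) were higher and 339 (9.85%) lower in VECs, and 455 and 340 without the 44 cells. The muscle fibre gene CKM was among those higher than in SMMCs, at 42.2 to 191 CPM in VECs (median 75.1) and 19.6 to 90.5 CPM in SMMCs (median 37.2), and without the 44 cells it no longer met the rule (log2FC 0.74), while ACTA1 (0.77) met neither rule. Of the 15 immediate early genes tested, DUSP1 (3.17) was higher than in SMMCs, and EGR1 (-1.03), MYC (-1.39) and BTG2 (-1.56) were lower, with a median of -0.41. Their part in the comparison with SMMCs was not tested. All 13 endothelial markers were higher than in SMMCs, CD74 included, with 1717 to 2674 CPM in VECs (median 2149) and 0 to 201 CPM in SMMCs (median 91.4), with a log2FC of 4.40 ± 0.31. All 5 mural markers tested were lower, with a median of -7.11 against -0.01 over all genes. Of the 13 endothelial markers 0 reached the filter's level of 42.7 CPM in the SMMCs of every animal. The 5 mural markers did not reach it in the VECs of every animal. Each set passed the filter through the cell type it marks, so its direction was in part set by the filter and the labels. The contractile genes MYH11 and CNN1 had log2FC values of -8.27 and -8.12. ACTG2, RCAN2 and BREH1 had 1, 1 and 2 UMIs in VECs, and ACTG2, a smooth muscle actin, was 2443-fold lower (95% counting interval 438 to 96559). At the other end stood SELP, with 0 UMIs in SMMCs and at least 77.9-fold higher in VECs, PLVAP (6.44), APLNR (5.44), DLL1 (5.22) and PALMD (4.99).

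Of 5 fatty acid uptake genes tested against SMMCs only FABP5 (2.61) was higher, and of 6 capillary genes 2 were, with CA4 (1.45) added without the 44 cells. Of the tested junction genes 21 of 24, of the MHC class I genes 9 of 9 and of the vascular tone genes 7 of 9 were higher, though only 5, 2 and 2 of them reached the filter's level of 42.7 CPM in the SMMCs of every animal.

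Genes of vessel segments were measured in all VECs first. Against all other cells, 4 of 7 arterial genes tested were higher and 1 lower, 3 of 5 venous genes were higher and none lower, 5 of 7 capillary genes were higher and 1 lower, and of 4 tip cell genes none was higher and 2 were lower. Over all genes 9.84% were higher and 11.1% lower. In the other cells 4 of the 7, 4 of the 5, 2 of the 7 and 1 of the 4 were not at the filter's level in every animal and entered through VECs. The venous list includes VWF and SELP, already given above. Clustering of the 1166 cells gave 7 subclusters, and 4 of them, with 1122 cells, held nearly all. The subclusters are defined by these genes, so the values describe them and were not tested. Subcluster 2 was capillary-like, with 442 cells (37.9%) and 18.4 to 58.0% of the VECs of an animal. It was led by RGCC (2494 against 701 CPM in the other VECs), with CA4 (222 against 72.8 CPM), the carbonic anhydrase of capillary walls, and TCF15 (759 against 291 CPM). Other listed capillary genes did not follow. MEOX2 was at 321 CPM, against 335 in subcluster 1 and 373 in subcluster 6. FABP4 was at 1.80 CPM, PLVAP at 17.1 and LPL at 0. Subcluster 1 held RGCC, CA4 and CD36 too, at 1353, 154 and 1705 CPM, against 61.1, 0 and 886 CPM in subcluster 4. The name thus rests on part of the list and does not set subcluster 2 apart from subcluster 1. Subcluster 4 was arterial-like, with 99 cells (8.49%) and 3.33 to 16.9% per animal. It was led by IGFBP3 (1022 against 40.5 CPM), the connexins GJA4 (630.3 against 33.8 CPM) and GJA5 (199.9 against 2.41 CPM), the Notch ligand JAG1 (866 against 110.4 CPM), the Notch target HEY1 (344 against 37.0 CPM) and the elastic fibre gene FBLN5 (161 against 6.43 CPM).

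Subcluster 6 was venous-like, with 160 cells (13.7%) and 5.63 to 26.4% per animal. It was led by the chemokine receptor ACKR1 (450.3 against 1.62 CPM), PLVAP (859.6 against 26.5 CPM) and SELP (463 against 8.73 CPM), with VCAM1 (250.2 against 17.5 CPM) and RAMP3 (485 against 20.1 CPM), and 463 of the 490 SELP UMIs of all VECs lay in these cells. PLVAP counted among the capillary genes of the lists used here, though it led this subcluster. VWF reached 1178 CPM and NR2F2 352 CPM there. These cells were the deepest of the 4, with a median of 6315 UMIs against 2595 in subcluster 1, 2406 in subcluster 2 and 3274 in subcluster 4. Subcluster 1, with 421 cells (36.1%) and 20.5 to 48.3% per animal, stays unnamed. It was led by VASH1 (116 against 16.1 CPM), a feedback inhibitor of vessel growth, the receptor KIT (81.4 against 10.0 CPM), the collagen COL4A2 (452 against 123 CPM), the peptide hormone ADM (269 against 67.8 CPM) and ANGPT2 (139.8 against 30.1 CPM).

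Subcluster 6 returned at resolutions of 0.3 and 1.0 and in cells thinned to 2000 UMIs, with 99.4 to 100% of its cells in 1 cluster. Subcluster 4 returned at 1.0, with 99.0% of its cells in 1 cluster, but was merged at 0.3. In thinned cells 89.3% of it lay in 1 cluster, of which it made up 52.3%. Subclusters 1 and 2 were merged at 0.3 and in thinned cells, and at 1.0 they were split, with 36.6% and 61.8% of their cells in 1 cluster. The thinned cells (830 VECs) gave 5 clusters, with an adjusted Rand index of 0.427 against the 7.

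The small subcluster of MYOD1-bearing cells (22 cells, 6 animals) held 106 of the 110 MYOD1 UMIs found in VECs. Its cells had a median of 10391.5 UMIs, and the cell cycle genes summed to 4959 CPM against 188 CPM in the other VECs, with MKI67, a marker of dividing cells, in 54.5% of its cells. It returned with 100% of its cells under all 3 settings. None of its barcodes was shared with another library.

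**Figure D4:**
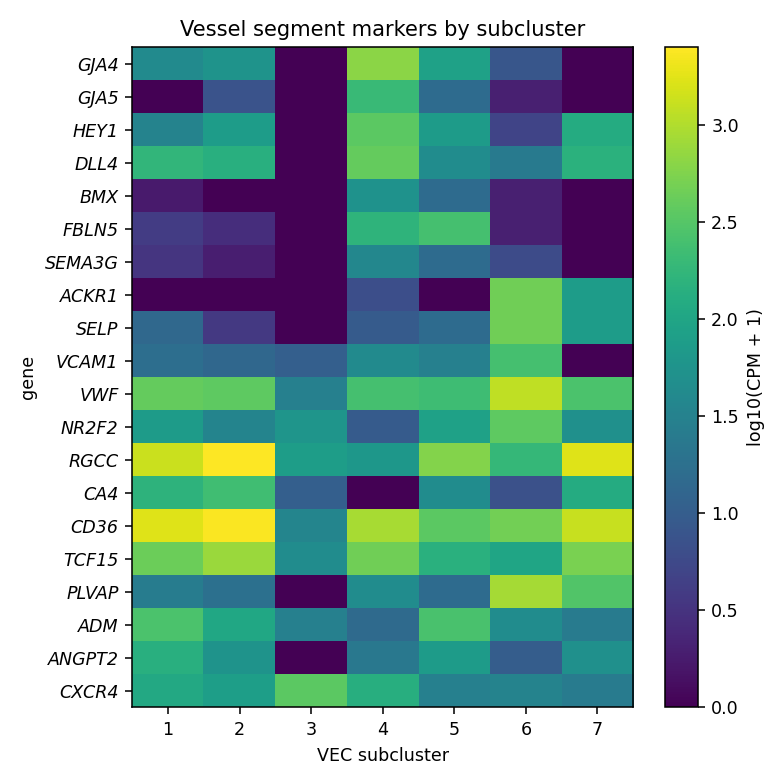
Heat map of 20 vessel segment genes (rows) in the 7 VEC subclusters (columns), coloured by log10(CPM + 1) of the summed cells. GJA5 reaches 199.9 CPM in subcluster 4 and ACKR1 450.3 CPM in subcluster 6, and subclusters 3, 5 and 7 hold only 22, 10 and 12 cells.

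Age had no part in labelling the cells, so genes could be tested for it. VECs of the 5 calves and the 5 adults were compared in edgeR's quasi-likelihood F test with Benjamini-Hochberg adjustment over 4522 genes. At an adjusted p under 0.05 and an absolute log2FC above 1, 11 genes (0.243%) were higher and 25 (0.553%) lower in calves, and 654 genes had an unadjusted p under 0.05. Without the 44 cells, 49 genes were called, 33 of them among the 36. The 3 that were not were CCND2 and an unnamed gene (ENSBTAG00000053806), which no longer passed the filter, and SMC4, whose log2FC went from 1.04 to 0.65. Calf VECs held more UMIs than adult VECs, with means of 568612 and 249458 per animal. The day of slaughter and digestion is not given, so age class cannot be told apart from a batch of that kind. Genes said below not to overlap between calves and adults were picked by this test on the same values. The share of all genes without overlap is not given here, so the lack of overlap is no separate result.

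IL33, a cytokine kept in the nuclei of endothelial cells and released on damage, had 215, 225, 249, 231 and 152 CPM in calves 2, 4, 5, 7 and 10 and 67.9, 78.9, 50.1, 72.4 and 74.3 CPM in adults 1, 3, 6, 8 and 9. Every calf was above every adult, with a log2FC of 1.62 ± 0.19 and an adjusted p of 1.09e-04 in edgeR. CCND2, the G1 cyclin D2, had 58.0, 42.2, 84.8, 39.8 and 84.8 CPM in the calves and 19.4, 8.30, 8.35, 30.2 and 8.74 CPM in the adults (log2FC 1.90 ± 0.37, edgeR adjusted p = 9.53e-03). It did not overlap, and it still did not without the 44 cells, at 27.5 to 85.7 CPM against 8.41 to 24.3 CPM. The adult values of CCND2 rest on 20 UMIs over the 5 adults, against 165 UMIs in the calves. IGFBP4, which binds insulin-like growth factors, had 245, 245, 223, 152 and 139 CPM against 38.8, 112, 96.0, 87.5 and 48.1 CPM (log2FC 1.37 ± 0.26, edgeR adjusted p = 0.0105). CCDC88A, an actin-binding protein of migrating cells, had a log2FC of 1.40 ± 0.28 (edgeR adjusted p = 9.93e-03) and TTC28 1.37 ± 0.29 (edgeR adjusted p = 0.016). Neither overlapped between calves and adults, and TTC28 kept its call in 8 of 10 fits that left out 1 animal. Their counts were low too, with 185 UMIs of CCDC88A in calves and 31 in adults, and 148 and 25 of TTC28. DESeq2 gave no adjusted p for CCND2 and TTC28, and with it their log2FC values were 1.95 and 1.39. Of the 36 called genes, 31 had an adjusted p in DESeq2, and it called all 31. IGFBP4 lost its call when the sums were thinned to the smallest (log2FC 1.55).

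Among the genes lower in calves, HYAL2, a hyaluronan-cleaving enzyme, had 107, 110.3, 149.8, 112 and 79.4 CPM in the calves and 431, 353, 630.3, 241 and 406 CPM in the adults. All calves were below all adults (log2FC -1.90 ± 0.23, edgeR adjusted p = 4.31e-04). DBNDD2 had 40.8, 21.1, 25.4, 32.7 and 21.7 CPM and 145, 137, 41.7, 109 and 105 CPM (log2FC -1.96 ± 0.28, edgeR adjusted p = 6.67e-04). SLC9A3R2, a scaffold under the cell membrane, had 612, 527, 492, 858 and 547 CPM and 2201, 2005, 1073, 1206 and 2652 CPM (log2FC -1.61 ± 0.25, edgeR adjusted p = 8.39e-03). For each of these the calves and the adults did not overlap, which is no separate result for genes picked by the test. EMP1 (log2FC -2.09 ± 0.38, edgeR adjusted p = 0.0287) and CRIP1 (-1.88 ± 0.36, edgeR adjusted p = 0.0391) were also called, but each kept its call in 3 of 10 fits that left out 1 animal, and CRIP1 also lost it with no filter on low counts (log2FC -1.85).

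Of 189 genes of the lists tested, 2 (1.06%) differed between calves and adults, against 36 (0.796%) of all 4522 genes tested. These were IL33 and ID1, and ID1 had 1597, 1931, 1399, 1749 and 1586 CPM in the calves and 4523, 4283, 1849, 2660.0 and 5028 CPM in the adults (log2FC -1.16 ± 0.25, edgeR adjusted p = 0.0418). ID1 overlapped between the groups, and its call held in 2 of 10 fits that left out 1 animal. None of the 13 endothelial markers, 27 junction genes, 9 MHC class I genes or 5 class II genes passed the test, which does not show that they were equal. Of the 36 called genes, 19 were called in all 10 fits that left out 1 animal. Further genes lower in calves in all 10 were the membrane linker EZR (-1.32), TBX3 (-1.45), TINAGL1 (-1.28) and the protease inhibitor TIMP4 (-1.13), chosen for mention after their values were seen.

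**Figure D5:**
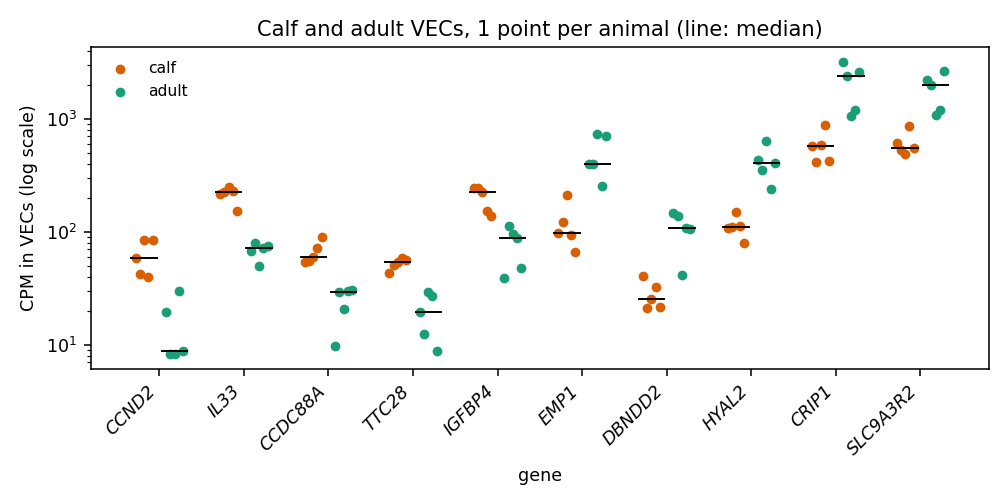
CPM on a log10 axis in the VECs of each animal for the 10 named genes that differed between calves and adults, 5 higher and 5 lower in calves, with 1 point per animal and a line at the median of each age class. For IL33 the calves lie between 152 and 249 CPM and the adults between 50.1 and 78.9 CPM.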

How the data were processed

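Single-cell RNA-seq was done on unsorted muscle cells of 10 cattle, pooled in 1 library. The authors ran Cell Ranger 6.0.1 on genome build ARS-UCD1.2, per the submitters' processing notes, and deposited raw UMI counts per gene and barcode. Deposited cell tables gave the demuxlet class, animal, cell type label, cell cycle phase and percent of mitochondrial UMIs of each barcode. A combined expression table and 15 columns of the deposited cell tables were not used. Cell type labels had been assigned by the authors from clusters and from transfer of mouse labels. Age class and sex came from the study's table of animals.

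Cells were the kept singlets of the authors. Demuxlet finds only doublets of different animals, and no other doublet caller was run. UMIs were summed per animal and cell type where at least 10 cells were present. CPM are counts per 1000000 UMIs of a sum, with no TMM factor. Sums were fitted in edgeR 4.0.16 (R 4.3.3; TMM factors, filterByExpr, robust quasi-likelihood fit), with standard errors derived from the F statistics. The calf and adult VECs were tested with the quasi-likelihood F test. Share of VECs was compared by an exact permutation test over animals, whose smallest possible p is 0.00794. VECs and the cells they were compared with came from the same animals, and the fits as reported had no term for the animal. Intervals are at 95% and, like the floor of 3 counts, cover counting error only. VECs alone were clustered with scanpy 1.11.5 (10000 counts per cell, 2000 variable genes chosen within animals, 30 principal components, 20 neighbours, Leiden resolution 0.5).

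The 30 gene lists hold 317 genes, of which 311 are in the matrix. BOLA-DRB3, BOLA-DQA1, BOLA-DQA2, GPIHBP1, ICAM2 and ABCB1 were not matched by symbol, and 68 symbols stand for several genes. The members and lists were chosen with earlier results of these data known. Named genes were the markers, list members, the 10 largest and 10 lowest log2FC against all other cells, the 5 each way against LECs and SMMCs, and up to 5 each way between calves and adults. Alternatives were DESeq2 1.42.0, no filter on low counts, thinning to the smallest sum, animal as a replicate block and sex as a covariate. Others were equal weights of the other cell types with at least 10 cells in an animal, leaving out each animal, and other clustering settings. Leaving out the 44 cells, and all alternatives for genes lower than in LECs and SMMCs, were chosen after seeing the data. The scripts were tested on simulated data, where the rule counted some unchanged genes against LECs. No sequences or coordinates are given, since the reference gene list at hand is of another build. Some members of the lists are counted in their group but not reported here by name.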

Additional observations from a re-analysis of the deposited data

Results flagged for a closer look

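Among 49 sets of animals screened with Dixon's test for a sample far from the rest, 4 held such an animal, where chance gives about 1 in 20. The VECs of animal 4 held 1042240 UMIs, while those of the other animals held 206284 to 554065. TEK, the angiopoietin receptor, was at 336 CPM in the VECs of animal 3 and at 202 to 271 CPM in the others. ERG, an endothelial transcription factor, was at 217 CPM in animal 6 and at 91.7 to 150 CPM in the others. NOS3, the endothelial nitric oxide synthase, was at 288 CPM in animal 9 and at 75.8 to 189 CPM in the others. Animals 3, 6 and 9 were adults and had few VECs (81, 60 and 71 cells).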

How the results depend on the processing

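Counts moved mainly with the depth and the filter. With the filter on low counts removed, genes lower than in all other cells went from 786 to 1705, those higher and lower than in LECs from 378 and 233 to 1909 and 418, those higher and lower than in SMMCs from 444 and 339 to 876 and 625, and calf and adult calls from 36 to 116. With sums thinned to the smallest, the counts were 400 higher and 291 lower against all other cells, 134 and 78 against LECs and 168 and 144 against SMMCs, and 33 calf and adult genes, 21 of them among the 36. DESeq2 called 47 such genes (31 shared, with no adjusted p for the other 5 of the 36) and the fit with sex 54 (35 shared). Leaving out 1 animal gave 664 to 752 higher and 726 to 899 lower genes against all other cells, 446 to 527 and 252 to 315 against LECs, 451 to 462 and 329 to 356 against SMMCs, 25.2 to 28.6% as the share of VECs, and 26 to 58 calf and adult genes, the 58 without animal 8. The animal as a replicate block paired VECs with the other cells of the same animal and gave 696 higher and 786 lower genes against all other cells, 380 and 231 against LECs and 444 and 337 against SMMCs. With it, of the list genes in both fits, 1 of 228 changed its call against all other cells (HSPA1A, newly counted at 1.16), 4 of 170 against LECs (ERG lost at 0.98, APOLD1 and CAVIN1 gained at 1.05 and 1.02 and RAMP3 newly lower at -1.05) and 0 of 167 against SMMCs. The difference in VEC share between calves and adults was -0.0336, -1.06, -2.89 and -1.61 percentage points without animals 1, 2, 4 and 6, over a range from -2.89 to 4.80, and -0.0272 without the 44 cells. The number of subclusters was 4 at a resolution of 0.3 and 11 at 1.0. A tally of gene values under the alternatives covered list genes and named genes against all other cells. For LECs, SMMCs and age it covered only the 10 genes named by fold change. In it 4083 values stayed called or uncalled as before, 26 were newly called and 40 lost the call. Among called genes 0 reversed in sign, and the sign of uncalled genes was not checked. Genes without a value under an alternative were left out, so with thinned sums 4 genes remained against LECs and 4 against SMMCs. The cause of these changes was not tested. With 47 LECs in the 4 animals compared, genes of low level could not be compared there.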
